A study of Mus musculus with 4 samples.

Results

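The D cyclins, their partner kinases CDK4 and CDK6 and the pocket proteins were followed as 8 genes (Ccnd1, Ccnd2, Ccnd3, Cdk4, Cdk6, Rb1, Rbl1 and Rbl2) in mouse bone marrow cells transduced with β-catenin. Every probe set whose only gene symbol in the annotation of the array platform was one of these 8 was taken, which gave 27 probe sets of 34945 with a single symbol and 8 genes of 18193. The series asked which genes β-catenin acts through when it immortalizes blood stem cells. All samples started from bone marrow sorted as lineage-negative, positive for Sca-1 and for c-kit (LSK), a gate that enriches stem and early progenitor cells. The eGFP day 3 sample had received a retrovirus for enhanced green fluorescent protein (eGFP), and the β-catenin day 3 sample a retrovirus for β-catenin. The DKmix samples were LSK cells that had received β-catenin and were then grown for 50 days (DKmix day 50) or 300 days (DKmix day 300). All 4 were grown in medium with serum, IL-3, SCF, Flt3 and IL-11. The form of β-catenin, the promoter driving it, the number of animals and whether DKmix was 1 clone are not given in the sources used here.

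Each group held 1 array, so the spread between cultures is unknown and nothing could be tested. Values are linear MAS5 signal intensities, deposited on a common scale (a mean of 150.0 on every array after trimming 2% at either end). Values under 48.3, the median over all arrays, were raised to this floor before a ratio was taken, and where that happened on 1 of the arrays the fold is written "at least". A gene or probe set was called higher or lower at 2-fold, a log2 ratio of 1. The brightest probe set of a gene, by mean log2 intensity, stood for it in counts of genes, and all its other probe sets are given beside it. In place of replicate error there was only the disagreement between probe sets of 1 gene, an SD of 0.66 to 0.91 in log2 ratio depending on the comparison. Intensities of different probe sets are not compared with each other.

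The arrays differed in more than their labels. The ratio of 3′ to 5′ signal for Gapdh, which rises as RNA is shortened, was above 4 on eGFP day 3 (4.14) and DKmix day 50 (4.96) and near 1 on β-catenin day 3 (1.18) and DKmix day 300 (1.06). The β-actin ratios were 1.83 and 3.41 on the first pair against 1.32 and 1.20 on the second. Arrays with like Gapdh ratios were compared in DKmix day 300 over β-catenin day 3 and in DKmix day 50 over eGFP day 3, which share no array. As a check of the labels, Ctnnb1 gave 5.93-fold and 2.26-fold higher intensity in β-catenin than in eGFP cells at day 3 by 2 probe sets and a ratio of 0.949 by its brightest. All lists of 4 values below follow the array order eGFP day 3, β-catenin day 3, DKmix day 50 and DKmix day 300. Of 8 listed LSK markers 6 could be read, and 2, 5, 4 and 4 of these were above the floor. Kit is counted among the mast cell markers below as well. Kit read 55.8, 82.9, 3459.5 and 1263, Cd34 111.8, 804, 2068.5 and 4293, and Meis1 44.1, 194.7, 318 and 334. Slamf1 read 5.6, 87.6, 62.9 and 39.0 and Procr 47.6, 106.9, 13.4 and 75.8, Flt3 was below the floor on all 4 arrays, and Sca-1 (Ly6a) was not analysed here. The cultures also differed in markers of mature cells: 10 mast cell markers summed to 759, 3744, 171268 and 75839, with 8, 6, 8 and 8 above the floor and Tpsab1 below it throughout. The sums of 10 neutrophil markers were 103009, 13190, 716 and 209, with 10, 8, 3 and 1 above the floor. Those of 10 macrophage and dendritic cell markers were 19412, 22969, 588 and 5812, with 9, 9, 5 and 4 above it, and at day 300 Cd68 alone made up 5407 of the sum, with Csf1r, Mpeg1, Itgax, H2-Aa, H2-Eb1 and Cd86 below the floor. The part of cell makeup and of RNA length in the ratios below was not tested, and fewer cells of a type and less RNA per cell cannot be told apart in such bulk samples.

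D cyclins link growth factor signals to the cell division cycle. They bind and activate CDK4 and CDK6, and these kinases phosphorylate the pocket proteins pRB (from Rb1), p107 (Rbl1) and p130 (Rbl2). Unphosphorylated pocket proteins hold E2F transcription factors and repress the genes of DNA replication, pRB mainly with the activating E2Fs and p107 and p130 with E2F4 and E2F5. p130 is typical of resting and differentiated cells and p107 of dividing ones. In blood progenitors, cyclin D2 and cyclin D3 respond to cytokines, and Ccnd1 is a textbook target of β-catenin with TCF/LEF factors.

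Of the 27 probe sets, 21 were above the floor on all 4 arrays, 5 on some and 1 on none. Each gene had at least 1 probe set above the floor throughout, and the number of probe sets per gene ran from 2 to 7.

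**Figure D1:**
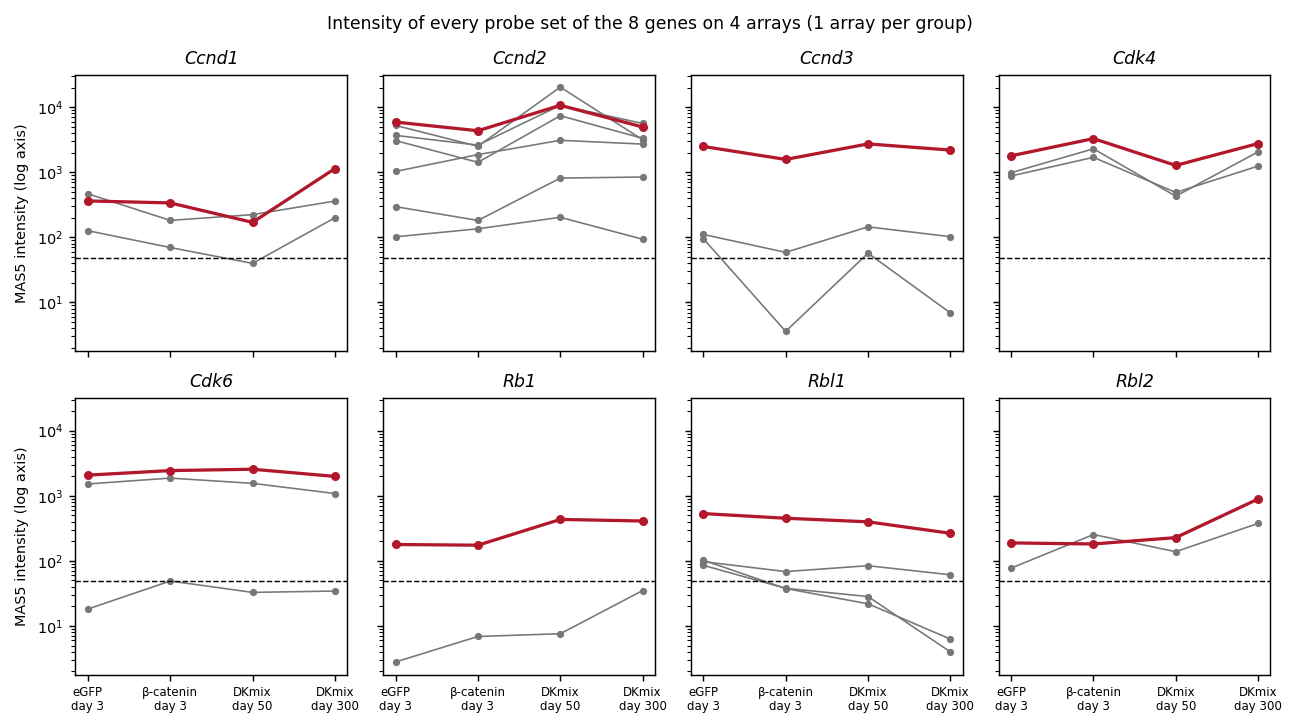
Intensity (log axis) of every probe set of the 8 genes on the eGFP day 3, β-catenin day 3, DKmix day 50 and DKmix day 300 arrays, 1 array per group, so there are no error bars. Lines join the values of 1 probe set, the brightest of each gene in red, and the dashed line is the floor of 48.3. Ccnd1 and Rbl2 are highest at DKmix day 300 by their brightest probe sets (1136 and 891), Rb1 sits at 409.6 and 433 on both DKmix arrays against 174 and 178 at day 3, and Cdk6 is nearly level.

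Cyclin D1 (Ccnd1) had its highest value at DKmix day 300. Its brightest probe set read 362 on eGFP day 3, 338 on β-catenin day 3, 170 at day 50 and 1136 at day 300. The day 3 arrays were alike by it, day 50 was the lowest, and day 300 lay 3.36-fold above β-catenin day 3 and 6.69-fold above day 50. A second probe set (1417420_at) had the same order, with 126.5, 69.8, 39.8 and 199.8, the day 50 value being below the floor. The remaining one (1417419_at) read 467, 182.1, 223 and 360.6, so that eGFP day 3 was the highest by it and day 300 was 1.98-fold above β-catenin day 3, just short of 2-fold. All 3 probe sets had β-catenin day 3 below eGFP day 3, by 1.07-fold to 2.56-fold with 1 past 2-fold, but on a scale set by the hybridisation controls (described below) the brightest was above it, at a log2 ratio of 0.42. All 3 also had DKmix day 50 at least 2-fold below eGFP day 3, by 2.13-fold, 2.09-fold and at least 2.62-fold. The DKmix arrays thus lay on opposite sides of the day 3 array with the like Gapdh ratio, day 300 above β-catenin and day 50 below eGFP. Of 11184 genes measured in both comparisons, 2.55% differed by at least 2-fold in opposite directions.

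Cyclin D2 (Ccnd2) was highest at DKmix day 50. Its brightest probe set read 5888 on eGFP day 3, 4335 on β-catenin day 3, 10649 at day 50 and 4951 at day 300. Only day 50 stood off, 2.46-fold above β-catenin day 3 and 1.81-fold above eGFP day 3. Against β-catenin day 3, all 7 of its probe sets had log2 ratios above 0 at day 50, from 0.59 to 3.02, with 5 past 2-fold. On the hybridisation control scale 5 of 7 were above 0, 3 of them past 2-fold, and 2 were below 0. Against eGFP day 3, an array with a like Gapdh ratio, all 7 were above 0 too, from 1.81-fold to 3.88-fold, with 5 past 2-fold. All 7 stayed above 0 on the control scale, with 3 past 2-fold. At day 300 the same 7 ran from a log2 ratio of -0.53 to 2.22 against β-catenin day 3, with 3 past 2-fold. The widest was 1455956_x_at, whose suffix marks probes that may detect other transcripts, at 5230, 2503, 20287 and 3154, and whose day 50 value was 6.43-fold above day 300. The dimmer 1416123_at read 295.9, 181.7, 813 and 843.7, so both DKmix arrays were alike and above both day 3 arrays by it. Between DKmix day 300 and day 50, 4 of 7 were at least 2-fold lower and the log2 ratios ran from -2.69 to 0.053, with an SD of 0.88 beside 0.91 over genes with 2 probe sets.

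Cyclin D3 (Ccnd3), which is needed for the expansion of immature lymphocytes, varied least of the D cyclins. Its brightest probe set read 2486, 1572, 2721 and 2188 on eGFP day 3, β-catenin day 3, DKmix day 50 and DKmix day 300. The β-catenin day 3 array was the lowest, though both DKmix arrays lay below it on the control scale, and no pair of arrays differed by more than 1.73-fold. A dim probe set (1444323_at) kept the same order with 110.7, 58.8, 144.8 and 102.4, and reached 2.46-fold between day 50 and β-catenin day 3. The third, 1438805_at, was above the floor on the eGFP array (95.5) and day 50 (57.1) and below it on the other two.

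Cdk4, the catalytic partner of D cyclins, had all 3 probe sets in the same order of arrays. The brightest (1422441_x_at) read 1786 on eGFP day 3, 3281 on β-catenin day 3, 1272 at day 50 and 2759 at day 300. The 2 arrays with Gapdh ratios near 1 were the high ones and the 2 with ratios above 4 the low ones. The probe set 1422439_a_at gave 876, 1692, 488 and 1243, and 1422440_at gave 982, 2289, 429 and 2058. DKmix day 50 was below β-catenin day 3 by 2.58-fold, 3.46-fold and 5.34-fold in turn, and below day 300 by 2.17-fold, 2.54-fold and 4.80-fold. Between arrays of like Gapdh ratio the differences were smaller. DKmix day 300 was 1.11-fold to 1.36-fold below β-catenin day 3, and DKmix day 50 was 1.40-fold to 2.29-fold below eGFP day 3, with 1 of 3 past 2-fold. At day 3, β-catenin cells had 1.84-fold to 2.33-fold more signal than eGFP cells, with 1 of 3 past 2-fold, and 3 of 3 on the control scale.

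The promoter of Cdk4 is shown because its 3 probe sets kept 1 order of arrays. The sequence, from RefSeq on GRCm38.p6, covers 250 bases before and 50 after the start, chr10:127063285-127063584 on the plus strand, with matches in capitals.
Cdk4 promoter: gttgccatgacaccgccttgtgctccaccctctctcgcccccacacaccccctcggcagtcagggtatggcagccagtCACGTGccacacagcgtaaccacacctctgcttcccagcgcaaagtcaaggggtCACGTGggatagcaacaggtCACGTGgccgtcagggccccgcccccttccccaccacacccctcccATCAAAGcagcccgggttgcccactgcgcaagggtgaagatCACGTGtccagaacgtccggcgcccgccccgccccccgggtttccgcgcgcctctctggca
It held 4 copies of the E-box CACGTG, which reads the same on both strands. Of 32817 RefSeq promoters of this length, 7.15% held at least 1 copy and 0.0244% at least 4, but this motif was added after the sequence had been seen, so the share is a description only. A match to the TCF/LEF motif (CTTTGAT or CTTTGAA on either strand) began 52 bases before the start, and 8.65% of promoters held one. The Cdk6 promoter held 1 E-box. A match describes letters only and says nothing of binding.

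Cdk6, the other kinase, which is prominent in blood progenitors, differed least among the 8 genes. Its brightest probe set read 2074, 2435, 2554 and 1982 on eGFP day 3, β-catenin day 3, DKmix day 50 and DKmix day 300, and a second (1455287_at) 1518, 1866, 1551 and 1082. No pair of arrays differed by 2-fold by either, the widest being 1.29-fold and 1.72-fold. Both had DKmix day 300 as the lowest array, and on the control scale the brightest passed 2-fold between it and β-catenin day 3 (-1.29). The third probe set did not exceed 49 on any array.

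**Figure D2:**
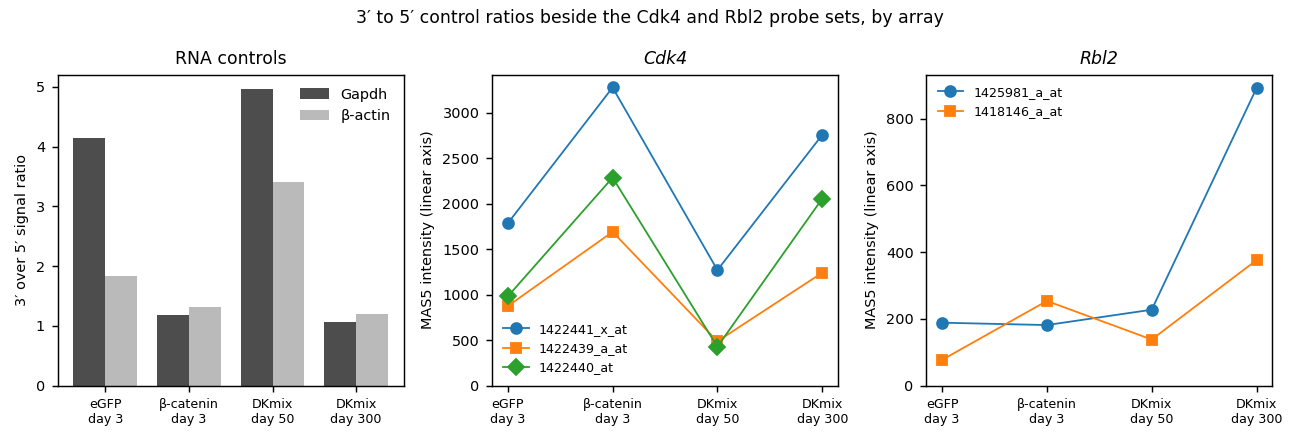
Ratio of 3′ to 5′ control signal for Gapdh and β-actin (bars, linear axis from 0) beside the intensities (linear axes from 0) of the 3 Cdk4 and 2 Rbl2 probe sets on the 4 arrays, 1 array per group. The Cdk4 probe sets are high on the 2 arrays with Gapdh ratios of 1.18 and 1.06 and low on those with 4.14 and 4.96. On this deposited scale Rbl2 is highest at DKmix day 300 by both probe sets (the dimmer has a log2 ratio of -0.43 to β-catenin day 3 on the hybridisation control scale), and its probe sets differ on the day 3 arrays.

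Rb1 was the only gene of the 8 whose brightest probe set placed both DKmix arrays at least 2-fold above both day 3 arrays. The probe set 1417850_at read 178 on eGFP day 3, 174 on β-catenin day 3, 433 at day 50 and 409.6 at day 300. The 2 day 3 arrays were alike, the 2 DKmix arrays were alike, and the pairs did not overlap. DKmix day 300 was 2.35-fold above β-catenin day 3 and DKmix day 50 2.43-fold above eGFP day 3, in comparisons with no array in common and like Gapdh ratios. Over all 15292 genes measured, 2.78% had both DKmix arrays at least 2-fold above both day 3 arrays and 2.68% below. In the like-ratio comparisons 5.47% of 11184 genes were higher in both and 5.33% lower in both, and of the 8 genes Rb1 was higher in both and 0 lower. The second Rb1 probe set was below the floor on every array (2.8, 6.9, 7.6 and 35.0) and gives no measured ratio. With the mean of all probe sets in place of the brightest, which lets the dim one in and puts the day 3 arrays at the floor, the log2 ratio of Rb1 at day 50 was at least 0.25 against either day 3 array. On the hybridisation control scale it was 0.27 at day 50 and 0.24 at day 300 against β-catenin day 3. Under each of these settings 0 of the 8 genes stood off in this way.

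Rbl2, which encodes p130, was highest at DKmix day 300 by both probe sets on the deposited scale. The brightest (1425981_a_at) read 189, 182, 228 and 891 on eGFP day 3, β-catenin day 3, DKmix day 50 and DKmix day 300. Only day 300 stood off by it, 4.91-fold above β-catenin day 3 and 3.92-fold above day 50. The other (1418146_a_at) read 77.3, 253.8, 138.3 and 376.2, with day 300 2.72-fold above day 50 but 1.48-fold above β-catenin day 3, and with a log2 ratio of -0.43 to it on the control scale. At day 3 the 2 probe sets disagreed: β-catenin over eGFP was 1.04-fold lower by the first and 3.28-fold higher by the second. By the brightest, 2.59% of all genes had a log2 ratio as high or higher between DKmix day 300 and β-catenin day 3.

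Rbl1, which encodes p107, was lowest at DKmix day 300 by both probe sets that were above the floor on all 4 arrays. The brightest read 532, 451, 398 and 265, highest on eGFP day 3 and 1.70-fold lower at day 300 than on β-catenin day 3. The probe set 1425166_at read 97.2, 68.4, 84.3 and 61.1. The other 2 were above the floor only on eGFP day 3 (102.5 and 85.4) and give no order of the remaining arrays. No comparison of the brightest passed 2-fold among the 5 made here, and day 300 over eGFP day 3, which was not among them, was 2.01-fold lower.

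The promoters of the p107 and p130 genes are shown because the 2 genes lay on opposite sides of the earlier arrays at day 300 by their brightest probe sets, Rbl2 above and Rbl1 below, and both are known to be E2F-responsive or to act in E2F complexes. Capitals mark matches to the E2F consensus (TTTCCCGC, TTTCGCGC, TTTGCCGC or TTTGGCGC), the cell cycle homology element (TTTGAA, part of the second TCF/LEF form) or the TCF/LEF motif, on either strand. Both come from RefSeq on GRCm38.p6, the first from chr2:157204485-157204784 on the minus strand and the second from chr8:91069807-91070106 on the plus strand.
Rbl1 promoter: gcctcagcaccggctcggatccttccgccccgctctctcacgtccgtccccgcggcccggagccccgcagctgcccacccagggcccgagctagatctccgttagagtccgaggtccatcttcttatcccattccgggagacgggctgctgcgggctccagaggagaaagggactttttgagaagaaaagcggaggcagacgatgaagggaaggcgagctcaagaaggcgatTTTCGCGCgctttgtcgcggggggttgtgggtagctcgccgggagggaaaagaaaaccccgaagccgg
Rbl2 promoter: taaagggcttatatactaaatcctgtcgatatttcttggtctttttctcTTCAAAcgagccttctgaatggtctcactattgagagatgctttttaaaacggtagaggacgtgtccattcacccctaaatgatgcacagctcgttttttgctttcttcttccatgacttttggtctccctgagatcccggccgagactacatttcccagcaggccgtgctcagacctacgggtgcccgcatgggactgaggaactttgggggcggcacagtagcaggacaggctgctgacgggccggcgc
The Rbl1 promoter held the E2F match TTTCGCGC 18 bases before the start, and 2.26% of the 32817 promoters held an E2F match. The Rbl2 promoter held none of the E2F forms and 1 TTTGAA match, on the minus strand and 201 bases before the start, as 17.9% of promoters did at least once. Promoters of 5 of the 8 genes (Ccnd3, Cdk4, Cdk6, Rbl1 and Rbl2) were in the table, 6 sequences in all, and the Rbl1 match was the only E2F match among them.

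Counted by brightest probe set, the 8 genes did not move as a block in any comparison. Between β-catenin and eGFP at day 3, 0 of 8 were higher and 0 lower, against 10.2% and 9.42% of 13365 genes, with a median log2 ratio of -0.078 beside -0.015 over all genes. Cdk4 came closest to 2-fold, at a log2 ratio of 0.88, and Ccnd3 next, at -0.66. By probe set 2 of 26 were higher and 4 lower, against 11.5% and 9.24% of all probe sets, and 3 of the 4 were repeat reads of D cyclins (2 of Ccnd2 and 1 of Ccnd1), of which 0 stayed lower on the control scale. With quantile normalization, the hybridisation controls, the mean of all probe sets or without the shared probe sets, 1 gene was higher, Cdk4 in each case.

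DKmix day 50 over β-catenin day 3 gave 2 of 8 genes higher (Ccnd2 and Rb1) and 1 lower (Cdk4), against 16.1% higher and 15.7% lower of 13742 genes. The median was 0.20 beside 0.067 over all genes. By role, 6 of 13 D cyclin probe sets were higher and 0 lower, 3 of 6 kinase probe sets were lower, and 1 of 5 for pocket proteins was higher, where 15.5% and 15.4% of all probe sets were higher and lower. The D cyclin count came from 5 probe sets of Ccnd2 and 1 of Ccnd3, which are repeat reads of 2 transcripts. All 3 lower kinase probe sets were of Cdk4, repeat reads of 1 transcript, and 0 were of Cdk6. With quantile normalization Ccnd2 was at 0.83 by its brightest.

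DKmix day 300 over β-catenin day 3 gave 3 of 8 higher (Ccnd1, Rb1 and Rbl2) and 0 lower, against 14% and 14.4% of 12656 genes. The median was 0.33 beside -0.076. All 3 calls stood under each of the 7 settings but the hybridisation control scale, on which Rbl2 alone passed, at 1.30. Of 12 D cyclin probe sets 5 were higher and of 5 pocket protein probe sets 2, against 13.4% of all probe sets. The D cyclin count came from 2 probe sets of Ccnd1 and 3 of Ccnd2, which are repeat reads of 2 transcripts. By its brightest probe set Ccnd2 was at 0.19. The 6 kinase probe sets lay within 2-fold, all with log2 ratios below 0 (-0.79 to -0.021).

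DKmix day 300 over DKmix day 50 gave 3 higher (Ccnd1, Cdk4 and Rbl2) and 1 lower (Ccnd2), against 15.1% and 15.9% of 13100 genes. The median was -0.20 beside -0.14. Ccnd1, at a log2 ratio of 2.74, was among the top 1.14% of all genes and Rbl2, at 1.97, among the top 3.84%. The Ccnd2 call was lost with quantile normalization (-0.74) and lowess centring (-0.72). This pair of arrays had the largest probe set disagreement and Gapdh ratios of 1.06 and 4.96.

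DKmix day 50 over eGFP day 3 gave 1 higher (Rb1) and 1 lower (Ccnd1), against 15.6% and 15% of 13820 genes, with a median of 0.20 beside 0.035. By probe set 6 of 25 were higher, 5 of them from Ccnd2, and 5 lower, 3 of them from Ccnd1, against 15.4% and 13.7%. The comparisons share arrays with each other, apart from the like-ratio pair named above, so their counts do not add up as separate evidence.

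**Figure D3:**
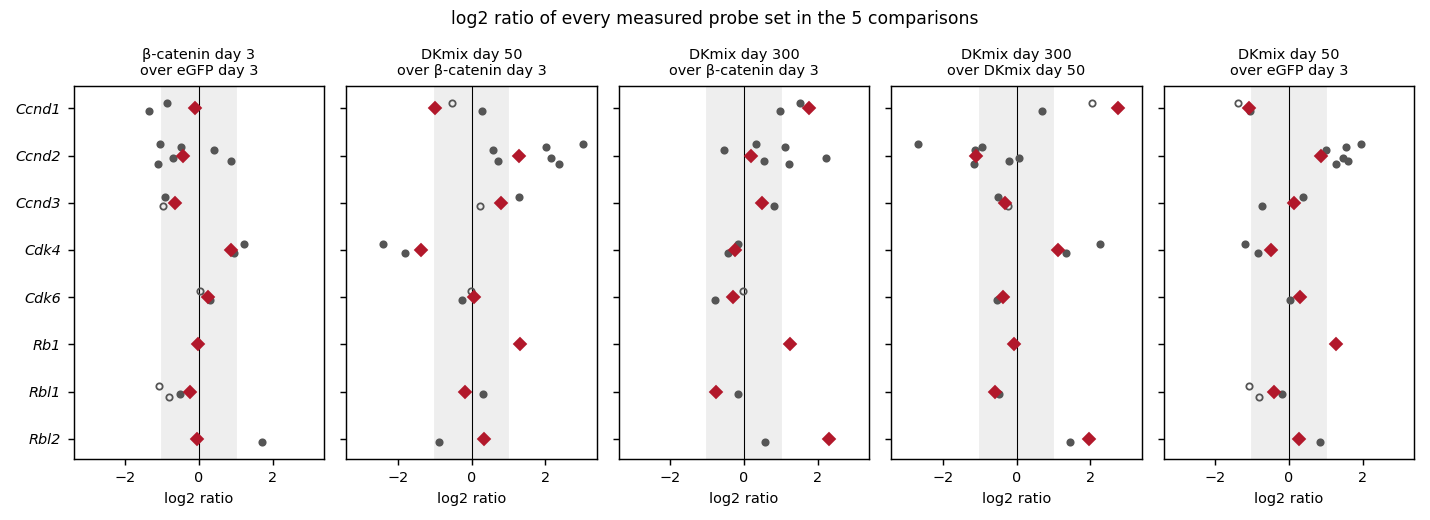
log2 ratio of every measured probe set of the 8 genes in the 5 comparisons, single arrays with no error bars. Red diamonds are the brightest probe set of a gene, grey circles the others, open symbols lower bounds, and the shaded band lies within 2-fold. Cdk4 probe sets lie on the same side of 0 within each panel, but spread from 1.12 to 2.26 between day 300 and day 50. Ccnd2 probe sets spread over a log2 range of -2.69 to 0.053 there, and Rb1 has 1 measured probe set.

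The scale bears on all of these directions. The hybridisation controls, which Affymetrix protocols add in a fixed amount, were brighter on the DKmix arrays, and setting the scale on them moved the median of all genes to 0.46 for β-catenin over eGFP, -0.82 and -0.87 for DKmix day 50 and day 300 over β-catenin day 3, -0.064 for day 300 over day 50 and -0.40 for day 50 over eGFP day 3. In the same order of comparisons, 52.0%, 50.5%, 49.2%, 48.7% and 50.9% of all genes called were higher on the deposited scale, and 81.3%, 9.37%, 9.15%, 55.7% and 22.0% on the control scale. Of the 12 ratios called among the 8 genes, 7 kept their call there, 5 fell short of 2-fold and 0 changed sign. Ratios within 2-fold did change sign there: those of Ccnd1, Ccnd2, Rb1, Rbl1 and Rbl2 between β-catenin and eGFP, of Ccnd3, Cdk6 and Rbl2 at day 50 over either day 3 array, and of Ccnd2 and Ccnd3 at day 300 over β-catenin day 3. Relative to the median of all genes, the median of the 8 genes was 0.41 for DKmix day 300 over β-catenin day 3 on the deposited scale and 0.21 on the control scale.

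Genes that act with D cyclins and pocket proteins were read from 8 lists. Over all genes, 16.1% were higher and 15.7% lower at day 50 than on β-catenin day 3, and 14% and 14.4% at day 300. Day 300 over day 50 had 15.1% and 15.9%, and day 50 over eGFP day 3 had 15.6% and 15%. A count near these shares says nothing particular of a list. The genes that E2F switches on for DNA replication were low in both DKmix cultures. Of 20 measured, 13 were at least 2-fold lower at day 50 and 14 at day 300 than on β-catenin day 3, with 0 higher and medians of -1.54 and -1.18, and 14 were lower at day 50 than on eGFP day 3 (median -1.33). At day 50, Tk1, a thymidine kinase, was at least 12.3-fold lower than with β-catenin at day 3, Cdc45 and Mcm2 of the replicative helicase 4.92-fold and 4.78-fold. At day 300, Mcm5 of the same helicase was 4.88-fold, the origin licensing factor Cdt1 4.24-fold and its inhibitor Gmnn 4.02-fold lower. Rrm2, a ribonucleotide reductase subunit, was level (1772, 1987, 1840 and 2057), and Tk1 was at 509.5 on day 300. On the control scale 20 and 19 of 20 were lower than on β-catenin day 3. That scale lowers ratios in these comparisons, with 6071 of 14220 and 6007 of 13574 genes lower, so it is no separate check. With the mean of all probe sets 15 of 18 were lower at day 50, and 12 lower and 1 higher at day 300.

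The E2F factors themselves differed between the DKmix cultures. Of 10 E2F and DP genes, 4 were lower and 0 higher at day 50 than on β-catenin day 3 (median -0.50). At day 300 E2f2 and E2f5 were higher and Tfdp1 lower (median 0.35), close to the shares of 14% and 14.4% over all genes. With the mean of all probe sets 0 of 9 were higher and 2 lower there (median -0.17), and on the control scale the median was -0.65. Between day 300 and day 50, 6 of 10 were higher and 0 lower (median 1.18, and 1.23 on the control scale). With the mean of all probe sets 2 of 9 were higher and 1 lower (median 0.60), and with the floor at percentile 75, 2 of 9 were higher (median 0.64). E2f4, the main partner of p107 and p130, read 109, 139.5, 8.5 and 228 on eGFP day 3, β-catenin day 3, DKmix day 50 and DKmix day 300. E2f5, the other such partner, read 236, 272, 247.5 and 829.7, 3.05-fold higher at day 300 than on β-catenin day 3, and so was high on the same array as Rbl2. Tfdp1, the DNA-binding partner of E2Fs, was 2.79-fold lower at day 300 than on β-catenin day 3.

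The inhibitors of CDK4, CDK6 and CDK2 were higher at day 300 on the deposited scale. Of 5 measured INK4 and CIP/KIP genes all 5 were at least 2-fold above β-catenin day 3 (median 1.77), beside 14% of all genes. On the control scale 2 of 5 were (median 0.98). Cdkn2b (41.6) and Cdkn2c (25.1) were below the floor on β-catenin day 3 and counted as measured only through day 300. Cdkn1c and Cdkn2a were below the floor on both arrays and were left out, so the filter favoured high calls. Cdkn2c, which encodes the CDK4 and CDK6 inhibitor p18, was at least 11.7-fold and Cdkn2d, for p19 of the same family, 4.41-fold higher. Cdkn2d was 3.13-fold lower in β-catenin than in eGFP cells at day 3, and its highest arrays were day 300 (511.5) and eGFP day 3 (363.3). Cdkn2a was above the floor only at day 50 (287.7).

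Cyclins E, A and B with their kinases and CDC25 phosphatases were low at day 50. Against eGFP day 3, 7 of 9 were at least 2-fold lower (median -1.38), among them Ccne1 (3.65-fold), which drives CDK2, and Cdk1 (2.89-fold), the mitotic kinase. Against β-catenin day 3, 3 of 8 were lower at day 50 (median -0.89), and at day 300 2 of 9 were higher and 1 lower (median -0.0062), against 1 higher and 5 lower on the control scale. Cdk2 was low on all 3 β-catenin-transduced arrays (313, 269 and 289) beside 747 on the 1 eGFP array. Between β-catenin and eGFP at day 3, 1 of 9 in this list was higher and 3 lower, Cdk2 among them. On the control scale 2 were higher and 1 lower.

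In the DREAM and MuvB group, the complex built on p130 and p107, 2 of 8 were lower at day 50 (median 0.25, but -0.92 on the control scale, -0.66 without the _x_at and _s_at probe sets and -0.20 when all probe sets are averaged) and 1 higher and 2 lower at day 300 (median -0.12), against β-catenin day 3. By brightest probe set Mybl2, which replaces p130 on that complex in dividing cells, was 5.12-fold lower at day 300, whereas Foxm1 was 4.47-fold higher. Each ratio rests on a value near the floor, 51.3 for Mybl2 at day 300 and 53.6 for Foxm1 on β-catenin day 3. The Foxm1 probe set is an _x_at one. With the mean of all probe sets 0 of 8 were higher at day 300 and 1 lower, so the Foxm1 call was lost. Without the _x_at and _s_at probe sets 1 was higher and 1 lower. Of 3 genes of the CDK-activating kinase, 2 were lower at day 50 (median -1.05), and 1 when all probe sets are averaged (median -0.40). Among 10 inducers and turnover factors of D cyclins, 5 were lower and 1 higher at day 50 (median -1.05). With the mean of all probe sets 3 of 9 were lower and 1 higher (median -0.38). By brightest probe set Fbxw8, of a ubiquitin ligase that acts on cyclin D1, was 5.32-fold and the growth regulator Myc 3.19-fold lower. The 1 higher was Fbxo4, at 64.3 on β-catenin day 3 and 163.8 at day 50. This list mixes inducers with turnover factors, so its median gives no single direction for D cyclins. Stat5a, which relays IL-3 signals to D cyclins, was 7.30-fold lower at day 300. Of 9 chromatin partners of pocket proteins 3 were lower at day 50 (median -0.41), among them the deacetylase Hdac3 (2.54-fold) and the histone-binding Rbbp7 (3.41-fold), and 0 passed 2-fold at day 300. On the control scale 4 of 9 were lower at day 300, near the share of all genes there (6007 of 13574). At day 3, β-catenin over eGFP gave medians between -0.67 and 0.54 over the 8 lists.

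**Figure D4:**
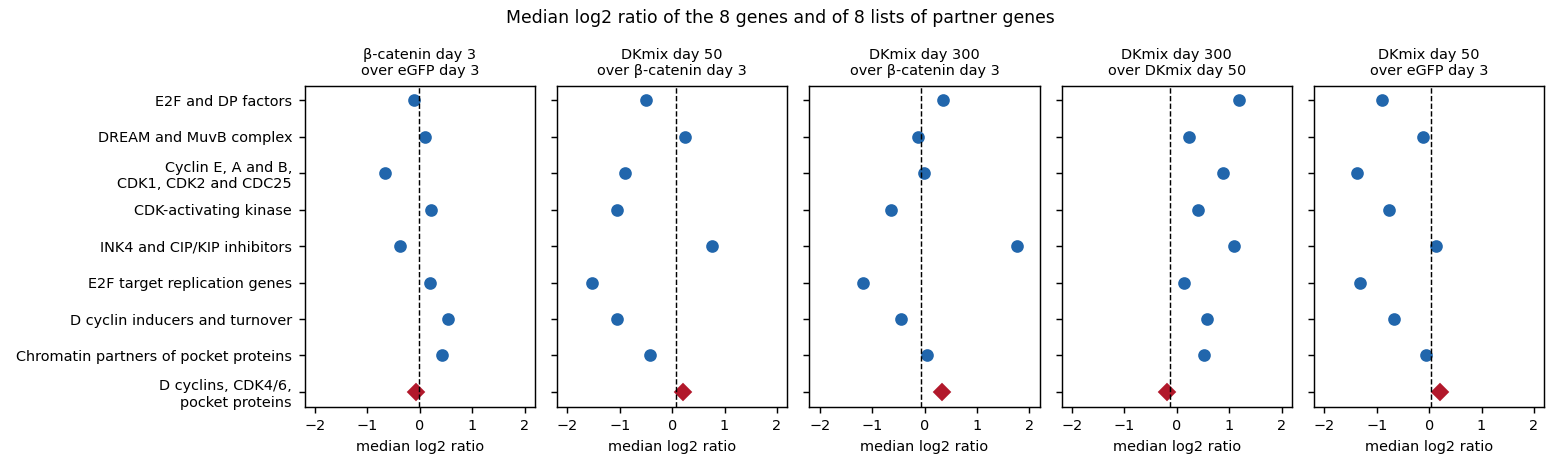
Median log2 ratio of the 8 genes (red diamond) and of 8 lists of partner genes (blue circles) in the 5 comparisons of single arrays, with the median of all genes dashed. The E2F target replication genes lie lowest at DKmix day 50 and day 300 over β-catenin day 3 (-1.54 and -1.18), and the INK4 and CIP/KIP inhibitors highest at day 300 (1.77). On the hybridisation control scale these become -2.43, -2.18 and 0.98, beside -0.82, -0.87 and -0.87 over all genes.

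For the 6 members whose brightest probe set spanned at least 2-fold, which leaves out Ccnd3 and Cdk6, the genes most like them across the 4 arrays were sought among 7573 others above the floor on every array, by the root mean square difference of log2 profiles centred on their own mean. Ccnd1 had few near neighbours, with 4 genes within 0.2 and Gla, a lysosomal galactosidase, nearest at 0.16. Rbl2 had 25 within 0.2, led by Rabgef1 (0.070), an exchange factor for Rab5 that is known in mast cell signalling. Rb1 had 87, led by Fgfr1op2 and Brox (0.048 and 0.053). The patterns of Cdk4 and Ccnd2 were common, with 120 and 210 genes within 0.2, led by the importin Kpnb1 (0.042) for Cdk4 and by Ube2d-ps (0.031) for Ccnd2. Rbl1 had 315, led by Zc3h15 (0.029). With 4 points a profile, such likeness describes these arrays only.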

How the data were processed

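The authors deposited 1 linear signal intensity per probe set and array (45101 on each of 4 arrays), and per the submitters' processing notes MAS5 made them. No MAS5 version or build is given in the sources used here. With 1 array per group, precision is limited by their number. Gene names came from the platform's annotation, which can be old, and 64 control probe sets were left out of gene values. Values were floored and compared as log2 ratios of single arrays (numpy 2.4.6, pandas 2.3.3), over genes above the floor on at least 1 array of a pair. The code was tested on simulated data.

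The 8 members, 8 partner lists and 7 marker lists were chosen with earlier results of these data known. Named were all members, per partner list and comparison up to 4 genes past 2-fold by size of ratio, and the 3 nearest patterns of a member. Rrm2 was added after its values were seen. Ccnb1, Suv39h1 and 1 other listed gene were not analysed here. Alternatives were quantile normalization, lowess centring (fraction 0.3, statsmodels 0.14.6), a scale set by 9 hybridisation controls, floors at percentile 25 and 75, the mean of a gene's probe sets, and leaving out _x_at and _s_at probe sets, which may detect other transcripts.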

Additional observations from a re-analysis of the deposited data

How the results depend on the processing

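No paired analysis was possible because each group held 1 array. Of the 12 ratios called among the 8 genes, 12 kept their call with either other floor and without the _x_at and _s_at probe sets, 11 with lowess centring, 10 with quantile normalization, 10 with the mean of all probe sets and 7 on the hybridisation control scale, and 0 changed sign. Counts of the 8 genes moved as follows. β-catenin over eGFP at day 3 had 1 higher with quantile normalization, the control scale, the mean of all probe sets or without the shared probe sets, and 1 lower with the mean. DKmix day 50 over β-catenin day 3 had 1 higher with quantile normalization, and 0 higher and 3 lower on the control scale. DKmix day 300 over β-catenin day 3 had 1 higher and 3 lower on the control scale. DKmix day 300 over day 50 had 0 lower with quantile normalization or lowess centring and 2 with the mean. DKmix day 50 over eGFP day 3 had 0 higher and 2 lower on the control scale, and 2 lower with the mean or without the shared probe sets. The count of genes with both DKmix arrays beyond both day 3 arrays, 1, was 0 on the control scale and with the mean. The control scale moves the ratios of a pair of arrays alike except where a value reaches the floor, and the mean of all probe sets lets dim probe sets in. Apart from these settings the cause was not tested. With the mean, Rb1 had no measured ratio between β-catenin and eGFP. Ratios of the dim probe sets are limited by the floor.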
